A study of Homo sapiens with 6 samples.

Results

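The genes described here are 59 genes of the interferon response, mostly interferon-stimulated effectors, with the receptors, kinases and transcription factors that act on them among the 59, chosen by gene symbol from the 20020 genes of the count table. The rule is a list of symbols and uses no measured value, but the list was chosen with earlier results of these data known. All 59 symbols were found, and 47 of the 59 had enough counts to be tested. They were measured by RNA-seq in HCT116, a human colorectal carcinoma cell line, in 6 libraries made from irradiated cells. CAD-KO+IR (3 libraries) came from 1 stable knockout line of the nuclease CAD, which is encoded by the gene DFFB and cuts chromatin DNA in apoptosis. sgVec+IR (3 libraries) came from cells that carry the empty guide vector. Both groups received ionizing radiation (IR), at 8 Gy and 24 h before harvest, so there is no library without IR and the comparison shows knockout against control in irradiated cells only. The knockout was made with a lentiviral Cas9 vector, and the labels do not say whether the line is 1 clone or a pool. The labels do not say that the libraries of a group came from separate cultures, so p-values measure the spread between these libraries, which may be technical.

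Type I interferons bind a receptor of the chains IFNAR1 and IFNAR2, to which the kinases TYK2 and JAK1 are attached. The kinases phosphorylate STAT proteins, and a complex that holds STAT2 and IRF9 enters the nucleus and binds the interferon-stimulated response element (ISRE) in the promoters of its target genes. The products of these targets act on viral RNA, on membranes, on translation and on protein modification, and several of them are used as readouts of cGAS-STING signalling, in which cytosolic DNA leads to interferon production. The comparison asks whether these genes were expressed at another level in irradiated cells without CAD, since the study is about restraint of cGAS-STING signalling by CAD.

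The ISRE is the sequence feature that many of the members share, and the motif was not used to choose them. The list is mostly interferon-stimulated effectors, so a share above that of all genes follows from how it was chosen. Promoter windows, from 250 bases before to 50 bases after the start of transcription, were taken from RefSeq (GRCh38.p14), which held 66 windows for 48 of the members. The core of the element, searched as GAAANNGAAA on both strands, was found in 37 of the 66 windows (56.1%), against 3.57% of all 35116 windows in the table. Counted by gene, 32 of the 48 members had a core in at least 1 window (66.7%), against 4.38% of 27305 genes. The core of the element bound by STAT dimers (GAS, searched as TTCNNNGAA, which reads alike on both strands) was in 16 windows (24.2%), against 7.66% of all windows, and in 6 of the 11 member windows with both motifs they overlapped. IFIT2, IFITM2, MX2, OAS2, OASL, IFNAR2, USP18, UBA7, TRIM22, GBP2 and ZNFX1 had no entry in the table. A match describes the letters of the window and is not evidence of binding. A window without a match can still hold the GAAA units of the element at another spacing, which was not searched.

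These 4 windows are printed because the results below turn on these genes or because they show how the element is arranged, and they were picked after the values were seen. ISG15 had the highest level among the members with a core after IFITM3, IFIT1 had the smallest p, IFI6 carries 3 cores, and LGALS3BP had the smallest p once the library that stood apart was left out. The capitals mark the ISRE core, as GAAANNGAAA or as its reverse complement.
ISG15, chr1:1013247-1013546, forward strand: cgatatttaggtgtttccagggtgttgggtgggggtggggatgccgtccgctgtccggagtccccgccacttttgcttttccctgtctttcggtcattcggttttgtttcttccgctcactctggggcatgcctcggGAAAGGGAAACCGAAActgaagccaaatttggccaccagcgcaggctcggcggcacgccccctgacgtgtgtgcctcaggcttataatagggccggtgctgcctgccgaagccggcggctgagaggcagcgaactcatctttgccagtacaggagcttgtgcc
IFIT1, chr10:89392373-89392672, forward strand: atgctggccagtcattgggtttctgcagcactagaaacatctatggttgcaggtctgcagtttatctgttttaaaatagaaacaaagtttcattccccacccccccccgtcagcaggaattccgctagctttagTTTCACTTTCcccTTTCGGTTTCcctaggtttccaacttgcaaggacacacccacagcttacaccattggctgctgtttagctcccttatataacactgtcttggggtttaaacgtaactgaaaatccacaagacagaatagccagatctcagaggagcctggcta
IFI6, chr1:27672143-27672442, reverse strand: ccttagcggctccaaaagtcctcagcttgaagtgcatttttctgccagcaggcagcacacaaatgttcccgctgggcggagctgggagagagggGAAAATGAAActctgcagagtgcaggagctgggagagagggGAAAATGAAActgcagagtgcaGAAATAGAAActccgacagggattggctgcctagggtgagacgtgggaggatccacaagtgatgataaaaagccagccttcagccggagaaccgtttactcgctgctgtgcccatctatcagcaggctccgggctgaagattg
LGALS3BP, chr17:78979874-78980173, reverse strand: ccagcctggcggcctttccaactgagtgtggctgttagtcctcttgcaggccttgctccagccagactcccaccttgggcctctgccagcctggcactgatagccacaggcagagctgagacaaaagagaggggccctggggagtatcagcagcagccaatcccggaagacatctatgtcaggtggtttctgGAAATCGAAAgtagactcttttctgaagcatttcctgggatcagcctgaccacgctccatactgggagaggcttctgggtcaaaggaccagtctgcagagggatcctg
In ISG15 the cores began at -113 and -107 from the start of transcription and shared their middle GAAA. In IFIT1 both cores lay on the opposite strand, at -116 and -103. In IFI6 the cores began at -156, -115 and -93, and in LGALS3BP the single core began at -58.

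The libraries were not equally alike. Their totals were 17467718 to 19574144 counts in CAD-KO+IR and 14032994 to 16311694 in sgVec+IR. In sgVec+IR replicate 3 the genes without any count numbered 7561, while the other libraries had 4577 to 5232, and its weight in a fit that estimates the quality of each library was 0.0404, against 3.54 and 3.76 for the other sgVec+IR libraries. CAD-KO+IR replicate 2 was the next most distant, with a weight of 0.154. DFFB, the targeted gene, was at 10, 10.1 and 12.4 CPM (counts scaled to the size of the library) in CAD-KO+IR and at 21.8, 22.9 and 20.9 CPM in sgVec+IR, so the groups did not overlap, although edgeR's quasi-likelihood test did not call it (log2 fold change -1.02, SE 0.193, Benjamini-Hochberg adjusted p = 0.55). DESeq2 called it (adjusted p = 0.00169). Of 8 epithelial markers, 6 were detected in every library, VIL1 had at most 3 counts and CDX1 had none. CDH1 was lower in every CAD-KO+IR library (63.9 to 69.8 against 93.9 to 99.7 CPM) and KRT18 higher (446 to 494 against 274 to 440 CPM). Neither was called, and the groups overlapped for EPCAM, KRT8, KRT19 and CLDN7. Over all genes tested, 5.01% were lower and 5.23% higher in every CAD-KO+IR library. Summed leukocyte markers reached 1.16 CPM at most. Summed fibroblast markers were at 25.9 to 39.8 CPM in CAD-KO+IR and 10.9 to 48.9 CPM in sgVec+IR. Nearly all of the fibroblast sum was COL1A1, at 25.5 to 38.7 and 10.9 to 47.8 CPM, while DCN and LUM had no count, COL1A2 had at most 1 and PDGFRB was at 1.41 CPM or less. The summed endothelial markers were at 0.685 to 1.54 CPM in CAD-KO+IR and 2.57 to 6.07 CPM in sgVec+IR. Most of this sum was VWF, at 0.685 to 1.42 CPM in CAD-KO+IR and 2.45 to 5.15 CPM in sgVec+IR. PECAM1 was at 0.753 CPM or less and CDH5 at 0.917 CPM or less. The part of these differences between libraries and groups in the results was not tested.

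Across the 47 members tested, no broad rise or fall of the interferon-stimulated genes was seen in irradiated cells without CAD. No member was called, up or down, which required a change of 1.5-fold or more with an adjusted p under 0.05 (edgeR's quasi-likelihood test), while 0.00774% of the 12925 genes tested were called higher and 0.0232% lower. IFIT1 was the 1 member with an unadjusted p under 0.05 (2.13% of the members tested, against 2.85% of all genes tested). Of the members, 22 were higher and 25 lower in CAD-KO+IR, and their median log2 fold change was -0.012, beside -0.011 for all genes tested. Between libraries the median of the members varied with an SD of 0.146 on the log2 scale, so a small shift of the list could not be seen. DESeq2, which gave an adjusted p for 54 members, and limma-voom also called none. These tools called 0.271% and 0% of the genes they tested, and in each of them IFIT1 was again the 1 member with an unadjusted p under 0.05.

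**Figure D1:**
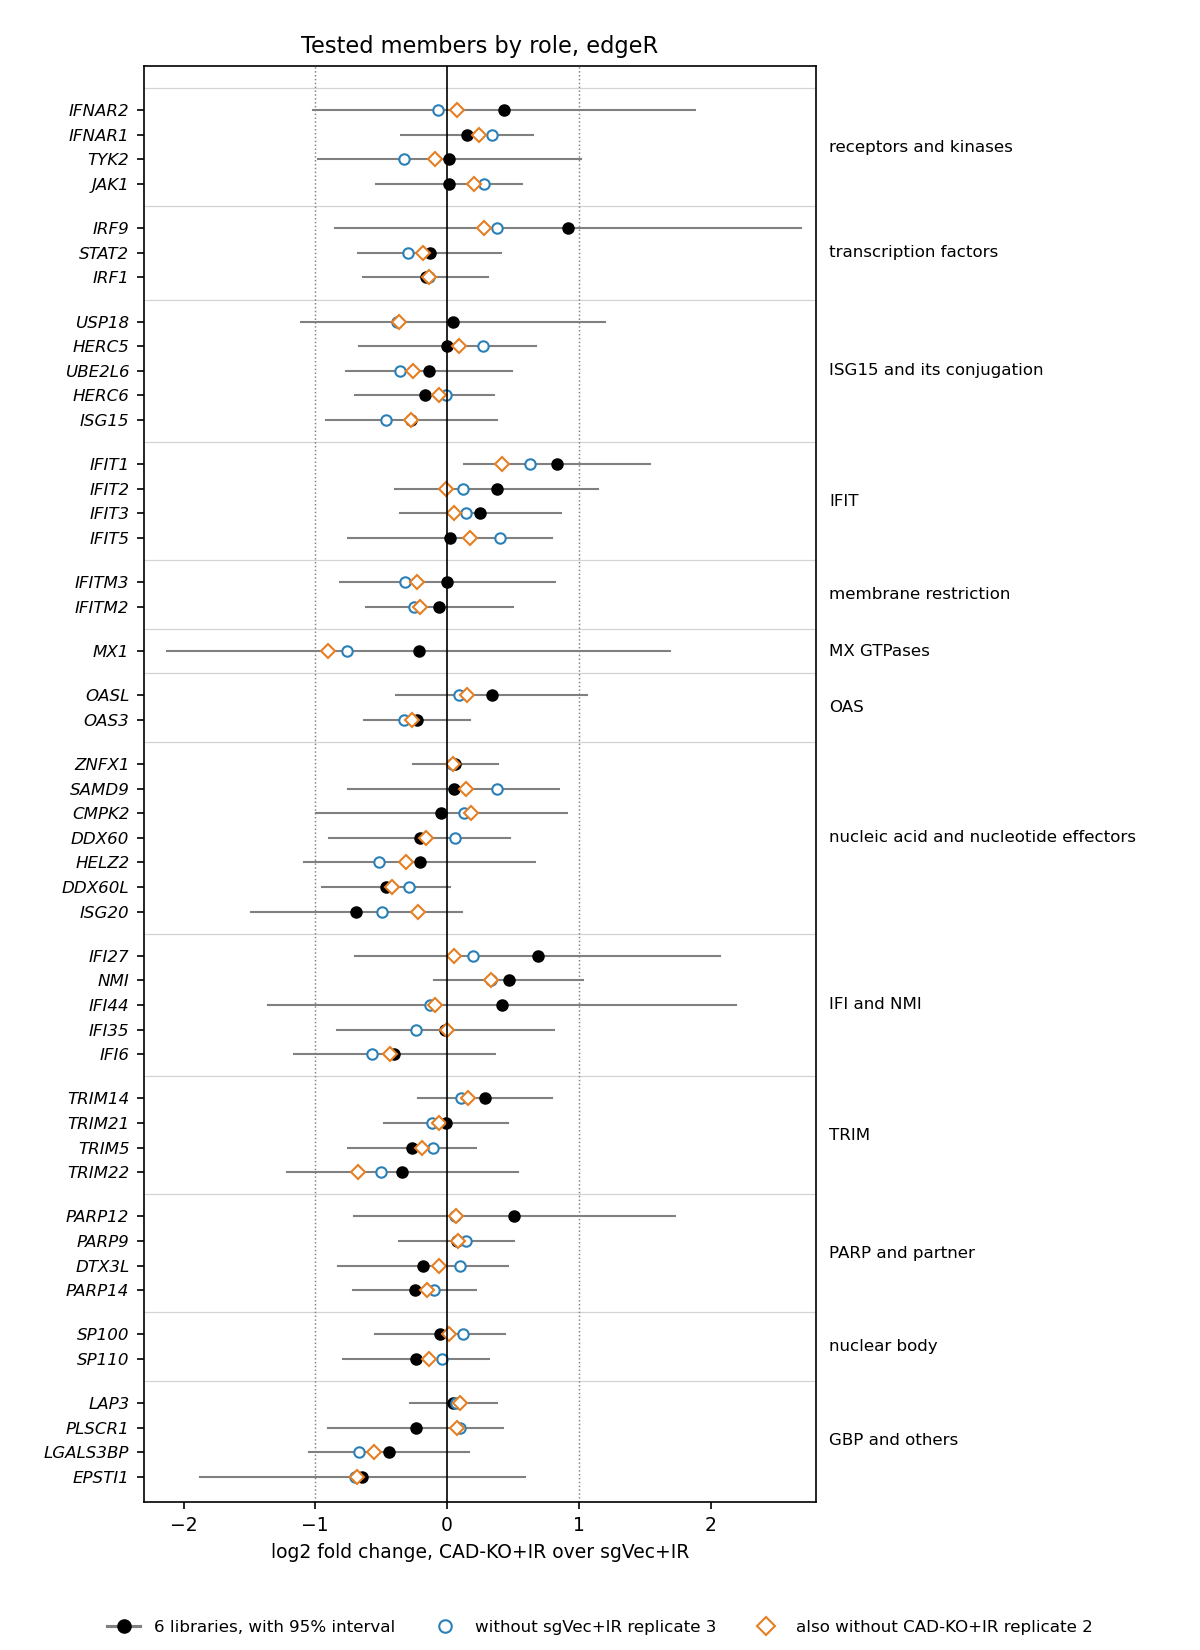
Log2 fold change (CAD-KO+IR over sgVec+IR, x axis) of the 47 tested members, grouped by role. Black points and grey lines are the edgeR estimate and its 95% interval from all 6 libraries, open circles the estimate without sgVec+IR replicate 3, and open diamonds the estimate also without CAD-KO+IR replicate 2. Dotted lines mark a 2-fold change. The interval of IFIT1 is the 1 that does not cross 0.

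How large a change the data could have hidden differed between members. For 29 of the 47 members (61.7%) the 95% interval of the log2 fold change lay within a 2-fold change in either direction, beside 60.3% of all genes tested. The interval lay within a 1.5-fold change for JAK1, TRIM21, PARP9, SP100, ZNFX1 and LAP3. It reached above a 2-fold rise for 12 members, namely IFI27, IFI44, IFIT1, IFIT2, MX1, OASL, IRF9, TYK2, IFNAR2, USP18, PARP12 and NMI, so a rise of that size lies within the error of these. The interval reached below a 2-fold fall for 10 members, namely ISG20, IFI6, IFI44, MX1, IFNAR2, USP18, TRIM22, EPSTI1, LGALS3BP and HELZ2. For 35 members the upper bound lay below a 2-fold rise, and for 24 below a 1.5-fold rise. Over the 12925 genes tested these numbers were 10058 and 5457.

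Baseline levels of the members spanned a wide range, and several classical antiviral genes were close to silent in these irradiated HCT116 cells. Levels between genes were compared as CPM per kilobase of exon. In sgVec+IR, 11 of the 59 members were at 10 CPM per kilobase or more, 28 between 1 and 10, and 20 under 1. The median was 2.91 over all 59 and 4.82 over the 47 tested, beside 5.96 for all genes tested. IFITM3, which blocks entry of viruses at membranes, and the ubiquitin-like protein ISG15 led the order at 124 ± 54.1 and 120 ± 29.8 CPM per kilobase (SD, n = 3), and their libraries overlapped. LGALS3BP, a secreted glycoprotein, followed at 80.8 ± 24.3 and LAP3, an aminopeptidase, at 30.0 ± 0.563, and each of these was above the next gene in every sgVec+IR library. Further down, ZNFX1 was above TRIM14 and ISG20 above CMPK2 in every sgVec+IR library, and the other neighbours in the order overlapped. Without sgVec+IR replicate 3 some of these no longer overlapped, among them IFITM3 over ISG15 and ISG15 over LGALS3BP. Others still did, such as OAS3 with UBE2L6 and JAK1 with DDX60L.

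**Figure D2:**
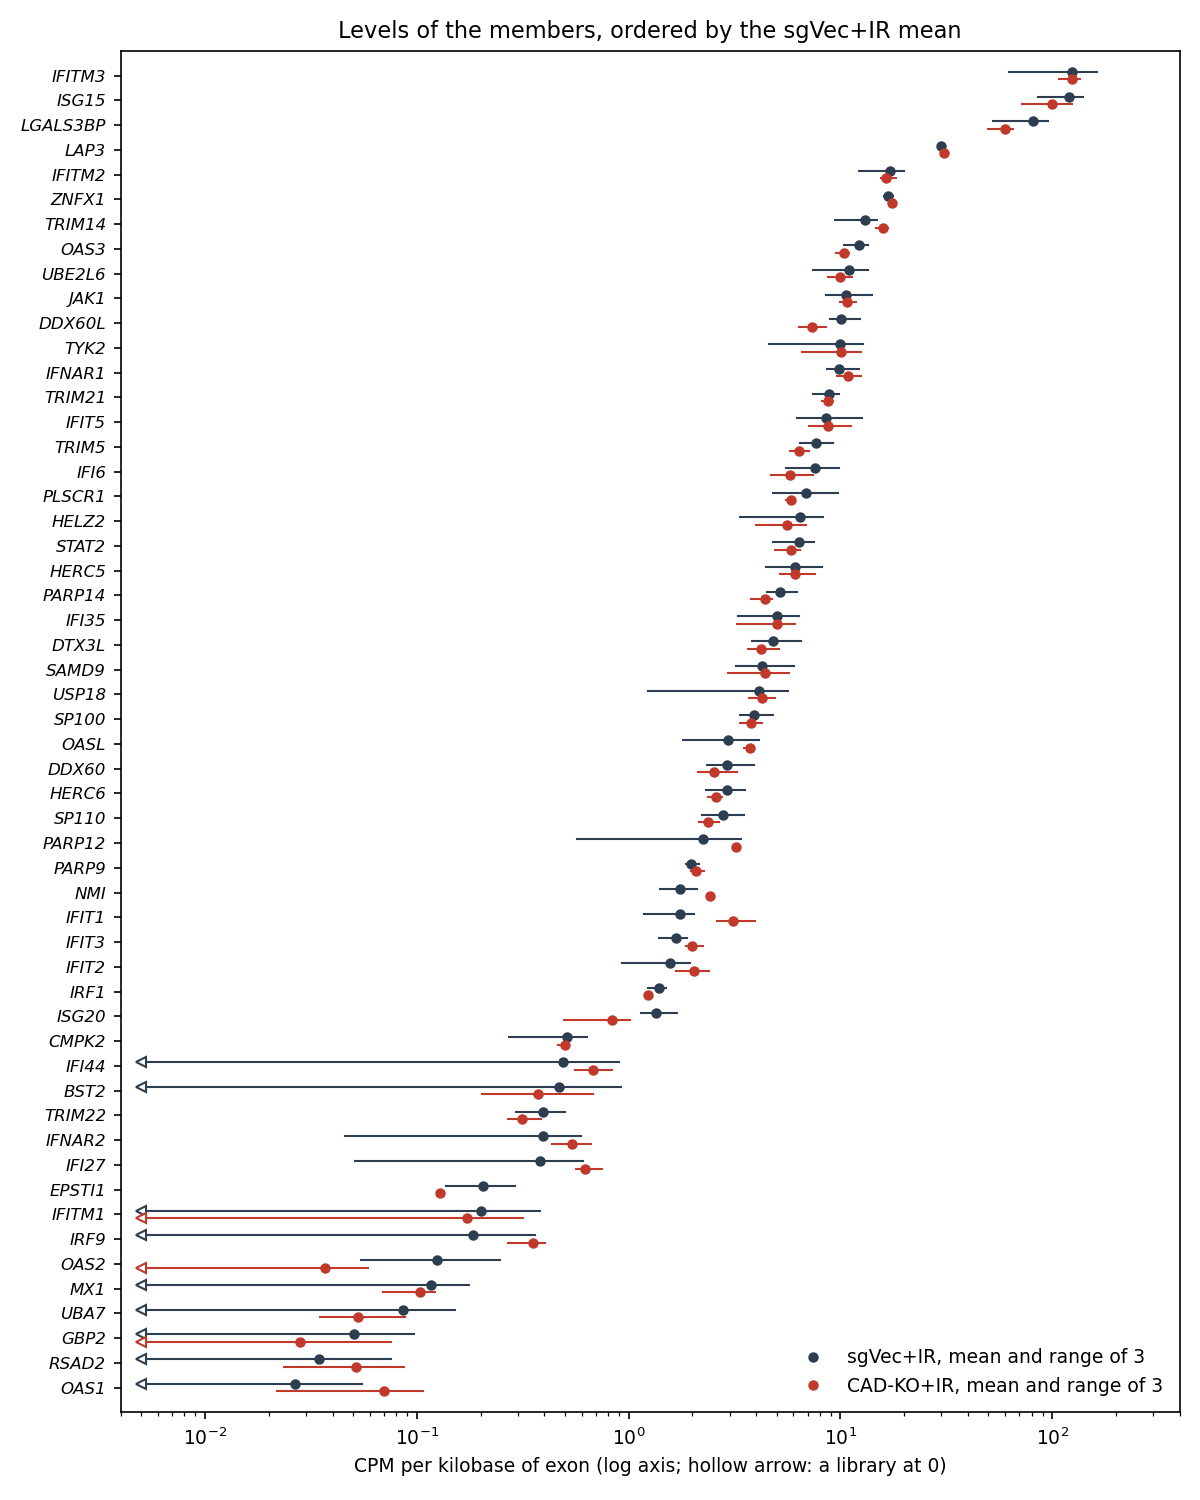
Level of each member with counts in both groups, as CPM per kilobase of exon (x axis, log scale), ordered by the sgVec+IR mean. Points are means and lines the range of 3 libraries, and hollow arrows mark groups with a library at 0. The order runs from IFITM3 at 124 to OAS1 at 0.0267 CPM per kilobase in sgVec+IR, and in most genes the ranges of the groups overlap.

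There were 4 members with no count in any library, namely GBP1, a guanylate-binding protein, XAF1, IFI44L and SAMD9L. No count in a whole group allows a level of up to 0.054 CPM in CAD-KO+IR and 0.067 CPM in sgVec+IR, a limit that covers counting error only. MX2, a GTPase of the dynamin family that acts on retroviruses, had at most 3 counts in each library. A further 7 were detected but too low to be tested, namely IFITM1, OAS1, OAS2, BST2, RSAD2, UBA7 and GBP2. OAS1, one of the enzymes that make the RNase L activator 2-5A, had 2, 10 and 7 counts in CAD-KO+IR and 2, 4 and 0 in sgVec+IR. RSAD2 (viperin), which is often used as a marker of an interferon response, had 4, 8 and 2 counts in CAD-KO+IR and 6, 2 and 0 in sgVec+IR. The groups overlapped for both genes, and a change was not detectable at this depth.

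The receptor chains and their kinases were expressed and differed by less than the spread between libraries. IFNAR1 was at 60.7, 78.7 and 67.5 CPM in CAD-KO+IR and at 54.3, 54.7 and 77.6 CPM in sgVec+IR. The third sgVec+IR library was nearly as high as the highest CAD-KO+IR library, so the groups overlapped (log2 fold change 0.15, SE 0.211, adjusted p = 1). JAK1 was at 63.1, 74.4 and 64.6 CPM against 56.9, 54.2 and 89.1 CPM, with the highest value again in sgVec+IR replicate 3 (log2 fold change 0.01, SE 0.234). The estimates of all 4 genes of this group were above 0, but over the alternatives that held for IFNAR1 only. The lowest estimates were -0.11 for JAK1, -0.32 for TYK2 and -0.067 for IFNAR2, and those of JAK1 and TYK2 were below 0 when libraries were scaled by their size alone. IFNAR2 had 3 counts in that library against 38 to 54 in the others, and 83.2% of its exonic length is overlapped by exons of AP000295.1 and IL10RB-DT, so its counts are uncertain.

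Among the transcription factors, STAT2 was at 37.4, 30.1 and 39.3 CPM in CAD-KO+IR and at 41.6, 46.1 and 29.3 CPM in sgVec+IR. The lowest and the highest value were both in sgVec+IR (log2 fold change -0.13, SE 0.229, adjusted p = 1). IRF1, which responds to interferon gamma and to other stimuli, was at 9.76, 9.81 and 9.51 CPM against 9.66, 11.7 and 11.2 CPM (log2 fold change -0.16, SE 0.200). IRF9, the DNA-binding partner of STAT2, had 27, 29 and 18 counts in CAD-KO+IR and 12, 20 and 0 counts in sgVec+IR. Its log2 fold change of 0.92 (SE 0.75) rests largely on the library with no count and was 0.38 without it. Another gene annotated on the same strand overlaps 48.4% of its exonic length.

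ISG15 is attached to proteins by the E1 enzyme UBA7, the E2 enzyme UBE2L6 and the ligase HERC5, and USP18 removes it and dampens receptor signalling. ISG15 was at 117, 68 and 96.7 CPM in CAD-KO+IR and at 132, 127 and 81.0 CPM in sgVec+IR. In each group the library that stood apart was the lowest, and the groups overlapped (log2 fold change -0.27, SE 0.274, adjusted p = 1). UBE2L6 was at 25.1, 19.1 and 21.8 CPM against 29.6, 26.6 and 16.3 CPM (log2 fold change -0.14, SE 0.266). USP18 was at 10.4, 9.02 and 7.86 CPM against 11.6, 12 and 2.61 CPM. Its log2 fold change was 0.04 (SE 0.487) and turned to -0.38 (SE 0.192) without sgVec+IR replicate 3. USP18 shares 23.4% of its 50-base windows with other genes, USP41 among them, so its reads may be split. Of the 5 members of this group tested, 2 were higher and 3 lower, and HERC5, at 0.001 on the log2 scale, was below 0 under the other 3 scalings.

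The IFIT proteins bind viral RNA and block its translation, and IFIT1 recognises RNA caps that lack a methyl group. IFIT1 (chromosome 10, 89392546 to 89406486, forward strand, GRCh38) was at 12.8, 18.2 and 12 CPM in CAD-KO+IR and at 9.23, 9.38 and 5.43 CPM in sgVec+IR. Every CAD-KO+IR library was above every sgVec+IR library, and the lowest and the highest value were in the 2 libraries that stood apart. The fold change was 1.78 (log2 0.83, SE 0.298, 95% interval 0.13 to 1.54), with an unadjusted p of 0.0266 and an adjusted p of 1 in edgeR's quasi-likelihood test. Over the alternatives the log2 fold change was 0.40 to 0.96 and the adjusted p 0.0242 to 1. With both of the libraries that stood apart left out, the log2 fold change was 0.42 (adjusted p = 0.0569).

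Among the other IFIT genes, IFIT5 was at 28.4, 45.1 and 31.5 CPM in CAD-KO+IR and at 28.1, 24.9 and 50.4 CPM in sgVec+IR. The high value of each group was in the library that stood apart, and the estimate was near 0 (log2 fold change 0.03, SE 0.327). IFIT2 and IFIT3 had log2 fold changes of 0.38 (SE 0.326) and 0.25 (SE 0.258), and neither passed the test. With all 6 libraries the estimates of the 4 IFIT genes were above 0. Over the alternatives IFIT1 and IFIT3 stayed above 0, while IFIT2 was as low as -0.089 (with library weights) and IFIT5 as low as -0.20 (without CAD-KO+IR replicate 2), and IFIT5 was at -0.0052 when libraries were scaled by their size alone.

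**Figure D3:**
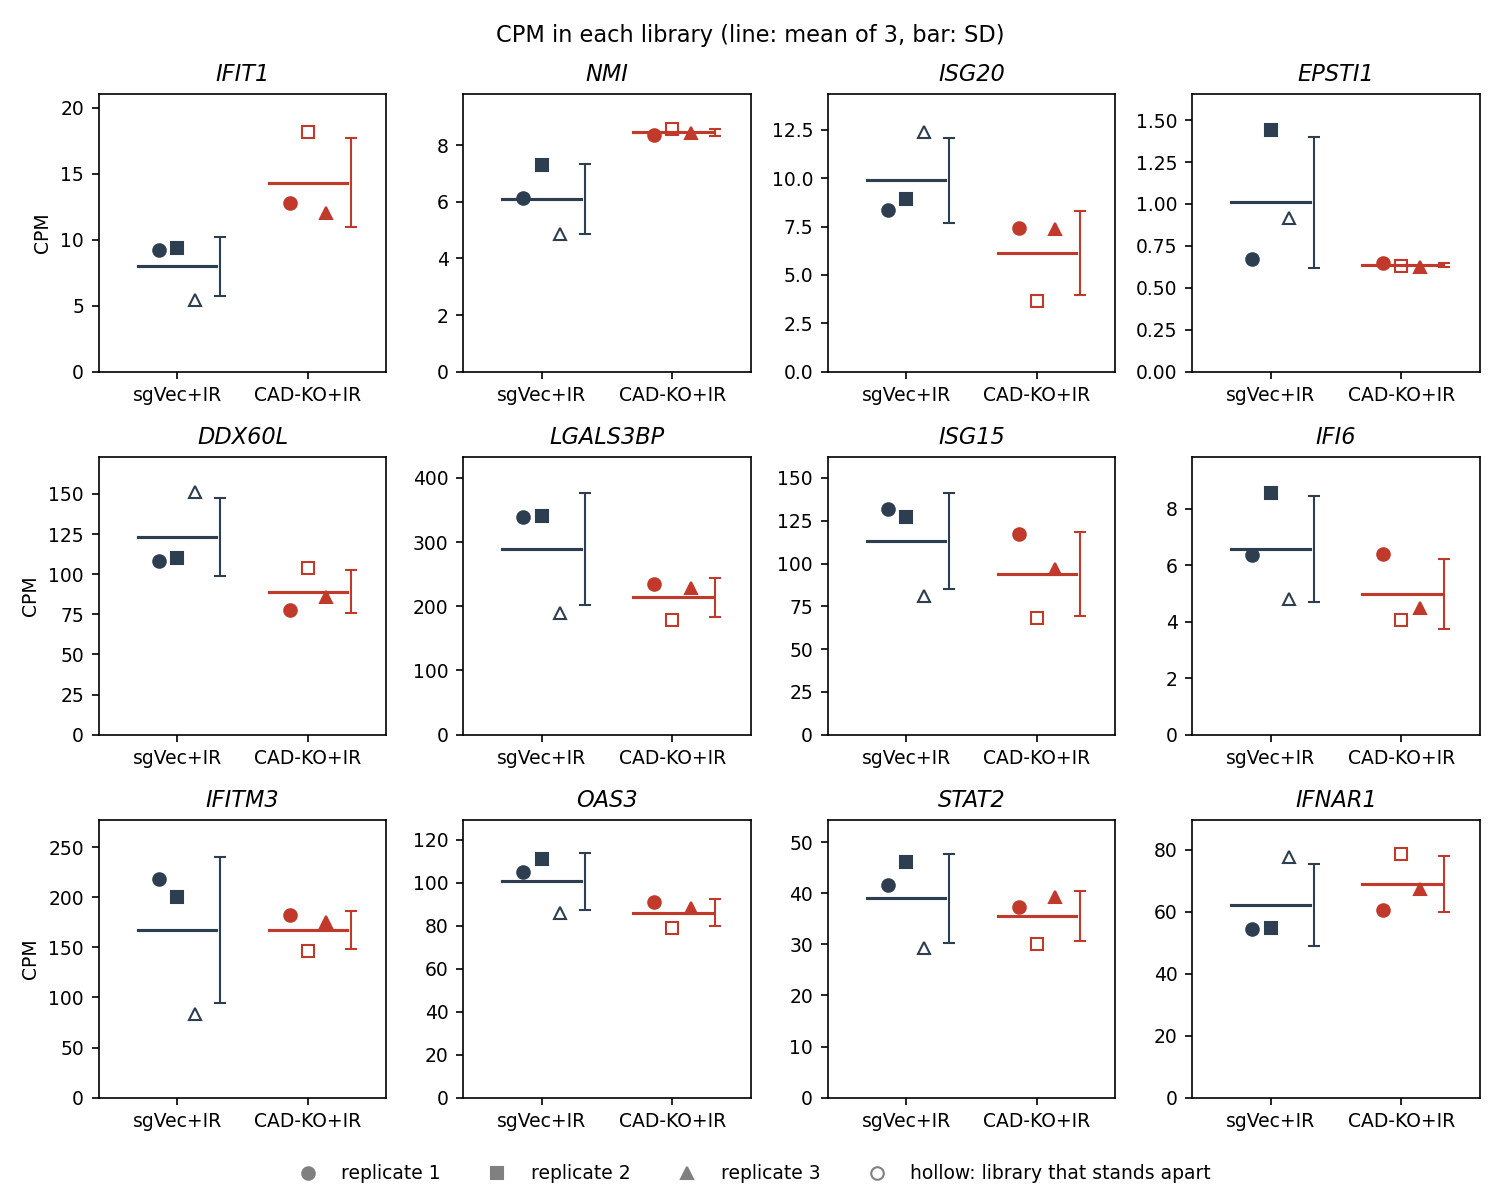
CPM of 12 members in each library (y axes start at 0). Symbols mark replicates 1 to 3, hollow symbols the 2 libraries that stand apart, horizontal lines the group mean and bars the SD (n = 3). IFIT1 and NMI lie above and ISG20, EPSTI1 and DDX60L below sgVec+IR in every CAD-KO+IR library, and LGALS3BP would do so but for sgVec+IR replicate 3 at 189 CPM.

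The membrane proteins IFITM2 and IFITM3 restrict virus entry. IFITM3 was at 182, 146 and 175 CPM in CAD-KO+IR and at 218, 200 and 83.8 CPM in sgVec+IR. With sgVec+IR replicate 3 the group means were level (log2 fold change 0.0014, SE 0.345), and without it the estimate was -0.32 (SE 0.14, adjusted p = 0.422). IFITM2 was at 28.1, 24 and 24 CPM against 30.7, 29.6 and 18.9 CPM (log2 fold change -0.06, SE 0.236). The IFITM genes are near copies of each other, and IFITM3, IFITM2 and IFITM1 share 17.4%, 34.1% and 32.0% of their 50-base windows with other genes, so counts of single members are uncertain. MX1, a GTPase that traps viral nucleocapsids, had 11, 20 and 18 counts in CAD-KO+IR and 25, 22 and 0 in sgVec+IR. In the other 2 sgVec+IR libraries it was above every CAD-KO+IR library, and its estimate moved from -0.22 (SE 0.806) to -0.76 (SE 0.403) without replicate 3.

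The OAS enzymes are activated by double-stranded RNA. OAS3, the largest of them and the main OAS transcript here, was at 90.8, 78.9 and 88.1 CPM in CAD-KO+IR and at 105, 111 and 85.8 CPM in sgVec+IR. sgVec+IR replicate 3 fell within the CAD-KO+IR range and the other 2 lay above it (log2 fold change -0.23, SE 0.169, adjusted p = 1). OASL, which has no 2-5A activity, was at 13.8, 12.3 and 13.4 CPM against 10.4, 14.4 and 6.35 CPM (log2 fold change 0.34, SE 0.306).

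Among the effectors that act on nucleic acids, DDX60L and ISG20 were lower in every CAD-KO+IR library, without passing the test. DDX60L, a helicase relative (chromosome 4, 168356735 to 168537786, reverse strand, GRCh38), was at 77.8, 104 and 85.6 CPM in CAD-KO+IR and at 108, 110 and 151 CPM in sgVec+IR. The gap between the nearest libraries was small and the highest value was in sgVec+IR replicate 3 (log2 fold change -0.46, SE 0.205, adjusted p = 1). ISG20, an exonuclease that degrades RNA, was at 7.42, 3.64 and 7.35 CPM against 8.38, 8.90 and 12.4 CPM. Its lowest and highest values were the 2 libraries that stood apart, and the log2 fold change of -0.69 (SE 0.338) shrank to -0.22 without both. ZNFX1, a helicase that senses RNA at mitochondria, was at 164, 163 and 162 CPM against 166, 152 and 151 CPM, with a log2 fold change of 0.06 (95% interval -0.26 to 0.38). It was among the most precisely measured members. Of the 7 tested members of this group, 2 were higher and 5 lower, and without sgVec+IR replicate 3 there were 4 higher and 3 lower.

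IFI6, a small membrane protein with 3 ISRE cores in its promoter, was at 6.4, 4.06 and 4.5 CPM in CAD-KO+IR and at 6.36, 8.56 and 4.8 CPM in sgVec+IR. The groups overlapped (log2 fold change -0.40, SE 0.321, adjusted p = 1). IFI35 was at 11.2, 6.43 and 12.1 CPM against 12.6, 10.7 and 6.49 CPM (log2 fold change -0.012, SE 0.348). Its partner NMI was higher in every CAD-KO+IR library, at 8.35, 8.59 and 8.43 CPM against 6.12, 7.32 and 4.87 CPM. The 3 CAD-KO+IR values were close together and the spread lay in sgVec+IR (log2 fold change 0.47, SE 0.239, adjusted p = 1). IFI27 and IFI44 had 3 and 0 counts in sgVec+IR replicate 3, against 33 to 59 and 17 to 30 in the other libraries, and their log2 fold changes of 0.69 and 0.42 became 0.20 and -0.13 without it.

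The TRIM genes and the PARP genes differed by less than the spread between libraries. TRIM14, an adaptor of antiviral signalling, was at 89.0, 80.8 and 91.2 CPM against 80.2, 81.7 and 51.6 CPM (log2 fold change 0.29, SE 0.216). TRIM21, which binds antibodies inside cells, was at 17.2, 15.8 and 17.8 CPM against 17.6, 19.1 and 14.3 CPM (log2 fold change -0.0074, SE 0.199). PARP14 was at 39.9, 49.8 and 48.5 CPM against 47.2, 51.6 and 65.3 CPM (log2 fold change -0.25, SE 0.198). DTX3L, the ligase that works with PARP9 in DNA damage repair, was at 21.6, 30.1 and 22.8 CPM against 23.9, 22.5 and 38.4 CPM (log2 fold change -0.19, SE 0.273). PARP12 was at 3.60 CPM in sgVec+IR replicate 3 and at 17.5 to 21.3 CPM in the other libraries, and its log2 fold change of 0.51 became 0.06 without that library. The proteins SP100 and SP110 belong to nuclear bodies. SP100 was at 42.2, 54.0 and 46.5 CPM against 45.6, 42.2 and 60.7 CPM, and SP110 at 15.8, 18.3 and 14.7 CPM against 18.3, 15.2 and 24.1 CPM (log2 fold changes -0.06 and -0.24, neither past the test).

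LGALS3BP (chromosome 17, 78971238 to 78980109, reverse strand, GRCh38) was the most abundant member by CPM. It was at 234, 179 and 228 CPM in CAD-KO+IR and at 339, 341 and 189 CPM in sgVec+IR. The first 2 sgVec+IR libraries were close to each other and above every CAD-KO+IR library, and the third was near the lowest (log2 fold change -0.44, SE 0.257, adjusted p = 1). Without sgVec+IR replicate 3 the log2 fold change was -0.67 (SE 0.144, unadjusted p of 0.00183, adjusted p = 0.24 in edgeR), and DESeq2 called the gene on the same 5 libraries (log2 fold change -0.65, adjusted p = 0.0382). It was the 1 member that DESeq2 called there, where 0.502% of all genes tested were called lower. The GC content of its exons was 60.5%. Without sgVec+IR replicate 3, edgeR's fold changes of all genes ran with GC content (Spearman rho -0.685), and the part of this in the result was not tested. LAP3 was at 119, 112 and 122 CPM against 113, 112 and 116 CPM, with a log2 fold change of 0.05 (95% interval -0.28 to 0.38). EPSTI1 was at 0.650, 0.633 and 0.626 CPM against 0.673, 1.44 and 0.917 CPM, which are 12, 12 and 11 counts against 11, 21 and 13, so the counts themselves overlapped (log2 fold change -0.64, SE 0.523).

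The groups did not overlap in 5 of the 47 members. IFIT1 and NMI were above in every CAD-KO+IR library (4.26% of the members tested, against 5.23% of all genes tested), and ISG20, EPSTI1 and DDX60L below (6.38%, against 5.01%). These shares are near those of all genes. With sgVec+IR replicate 3 set aside, 6 members were above (12.8%, against 22.0% of all genes) and 15 below (31.9%, against 23.7%). The 6 were IFIT1, IFIT5, JAK1, IFNAR1, PARP9 and NMI, and the 15 included ISG15, IFITM2, IFITM3, MX1, OAS3, STAT2, USP18, UBE2L6, LGALS3BP and HELZ2. The GC content of the exons was 37.4% to 46.2% in the 6 and 38.7% to 67.2% in the 15.

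sgVec+IR replicate 3 had the lowest or the highest CPM of the 6 libraries in 36 of the 47 members (76.6%), which is close to the 75.5% over all genes tested. It was lowest in 21 and highest in 15 of the members. Of the 47 members with at least 10 counts in every other library, IFI44, MX1 and IRF9 had none in this library (6.38%, against 3.74% of 12303 genes). Its difference from the mean of the other sgVec+IR libraries ran with the GC content of the exons, with a Spearman rho of -0.551 over the 47 members and -0.715 over 12913 genes. For CAD-KO+IR replicate 2 the rho was -0.742 over the members and -0.809 over all genes. These correlations are across genes, which share the same libraries and are not independent replicates. Members of low GC content such as SAMD9 and IFIT5 were high in both of these libraries, and members of high GC content such as HELZ2 and TYK2 low. The part of GC content in the fold changes of single members was not tested.

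**Figure D4:**
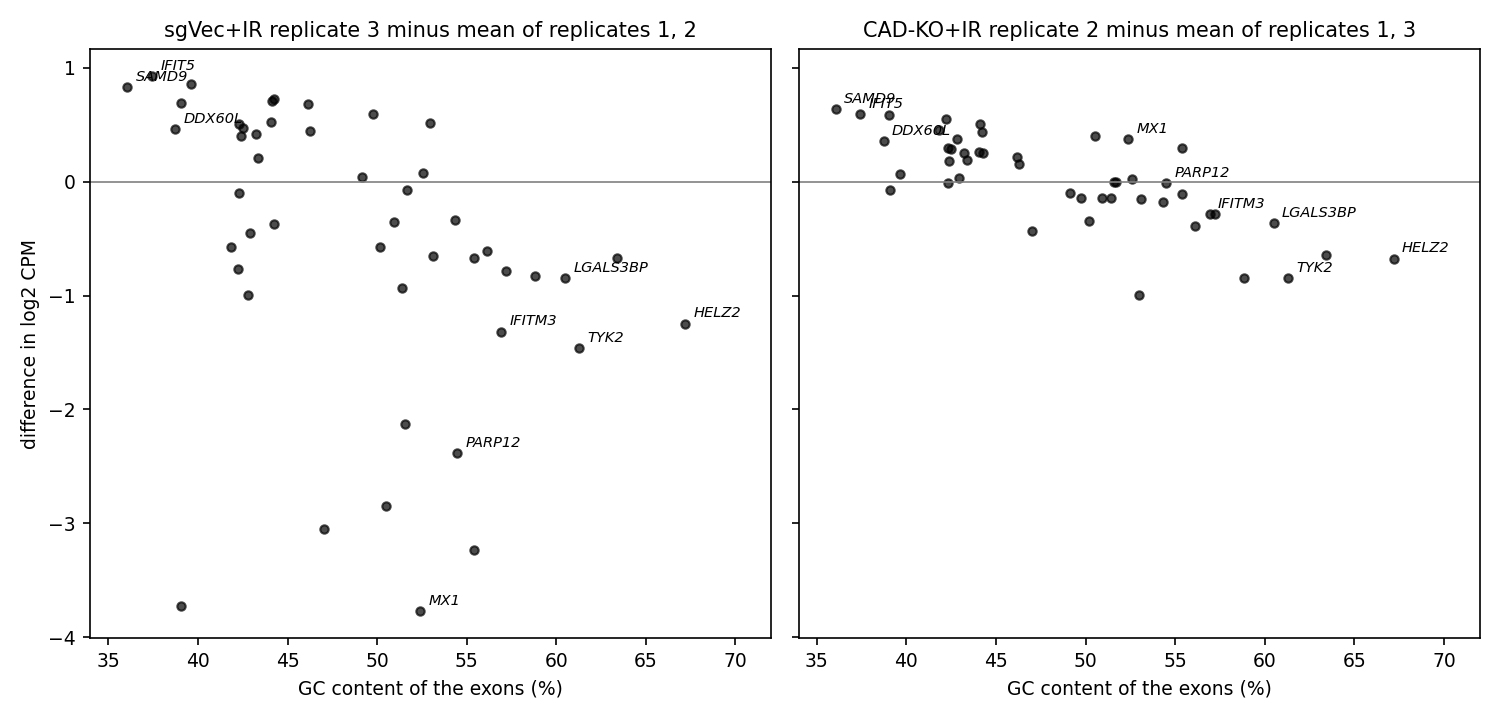
Difference in log2 CPM between the library that stands apart and the mean of the other 2 libraries of its group (y axis), against the GC content of the exons in percent (x axis), for the 47 tested members. The left panel is sgVec+IR replicate 3 and the right panel CAD-KO+IR replicate 2. Members of high GC content lie lower in both panels (Spearman rho -0.551 and -0.742), and the spread is wider on the left.

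The members were then compared without sgVec+IR replicate 3, and without it and CAD-KO+IR replicate 2. Without the first, 48 members were tested, none was called (0.167% of all genes were), and LGALS3BP, IFIT1 and OAS3 had an unadjusted p under 0.05 (6.25% of the members, against 11.9% of all genes tested). The estimate changed sign for 10 members, namely IFI44, IFITM3, TYK2, IFNAR2, CMPK2, USP18, DTX3L, SP100, PLSCR1 and DDX60. In this fit the fold change ran with the GC content of the exons (Spearman rho -0.685 over 12913 genes and -0.491 over 47 members). With all 6 libraries the rho was -0.0092 and -0.0578. The part of GC content in these changes of the estimates was not tested. Without both libraries, 2 remained in each group, and 7 of 48 members had an adjusted p under 0.05 in edgeR's quasi-likelihood test, each with a fold change under 1.5. IFNAR1 was higher (2.08% of the members, against 7.99% of all genes), and LGALS3BP, IFITM3, DDX60L, ISG15, OAS3 and HELZ2 were lower (12.5%, against 8.25%). With a fold change of at least 1.5 required, no member was called, against 3.37% of all genes.

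Both libraries were left out after the data were seen, as the most distant of their groups, which narrows the spread. The median SE over the members was 0.126 in this fit, against 0.281 with all 6 libraries. The SEs and p-values of this fit are therefore likely to be too small. Of the 7 members, LGALS3BP had the largest change, with a log2 fold change of -0.55 (SE 0.0566, adjusted p = 9.69e-11 in edgeR's quasi-likelihood test). DDX60L followed at -0.41 (SE 0.0714, adjusted p = 2.27e-05), and HELZ2, a helicase that acts as a nuclear receptor coactivator, at -0.31 (SE 0.0758, adjusted p = 0.00234). ISG15, OAS3 and IFITM3 were at -0.27, -0.27 and -0.23 (SE 0.0715, 0.0698 and 0.0614). IFNAR1 was at 0.24 (SE 0.0818, adjusted p = 0.0363). The GC content of the exons was 38.7% in DDX60L, 42.3% in IFNAR1 and 54.3% to 67.2% in the other 5. Over all genes the fold change without both libraries ran with GC content (rho -0.403, and -0.288 over 47 members). With all 6 libraries the rho was -0.0092 over all genes and -0.0578 over the members.

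A fit of all 6 libraries that weights each by its estimated quality (limma-voom) gave 13 of 47 members with an adjusted p under 0.05, which is 27.7% of the members against 22.3% of all genes. Of these, 3 were higher (6.38%, against 10.5% of all genes) and 10 lower (21.3%, against 11.8%). The 7 above were all among the 13. The same 2 libraries had the lowest weights in this fit (0.0404 and 0.154), so the 2 fits are not independent. The other 6 of the 13 members were IFIT1 and JAK1 (higher) and IFITM2, USP18, UBE2L6 and IFI6 (lower). With a fold change of at least 1.5 required, IFI6 was called lower (log2 fold change -0.5855, adjusted p = 0.0336), against 3.51% of all genes, and no member higher, against 1.64%. The IFI6 estimate lay at the threshold, which is 0.585 on the log2 scale, and LGALS3BP at -0.571 fell just short of it.

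**Figure D5:**
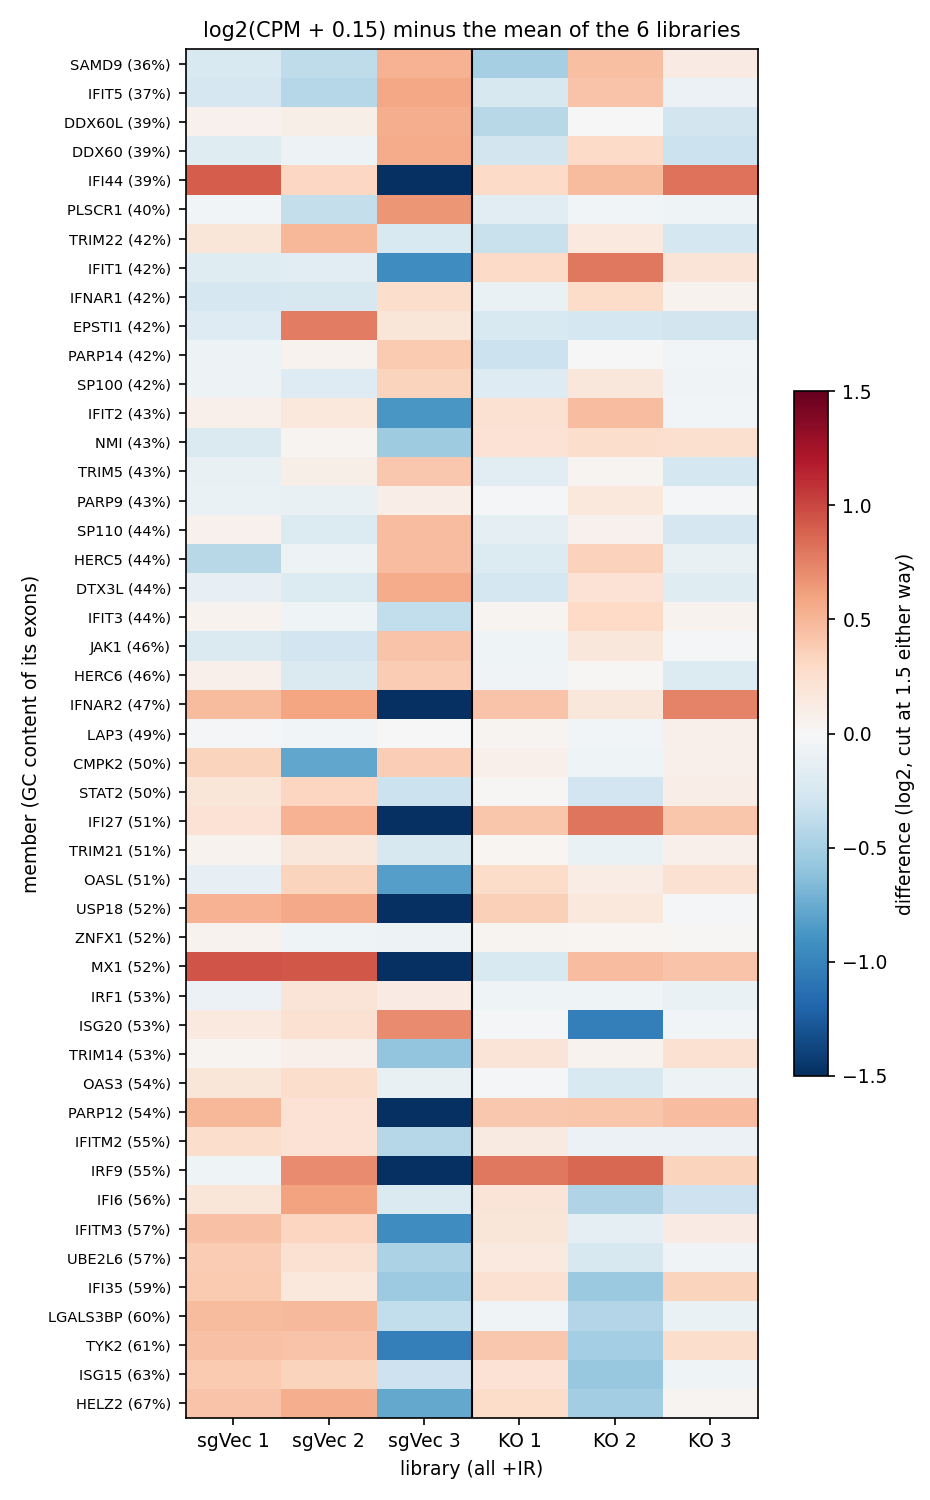
Each tested member (rows, ordered by the GC content of its exons from low at the top to high at the bottom) in each library (columns), as log2(CPM + 0.15) minus its mean over the 6 libraries. Red is above and blue below the mean, and colours stop at 1.5. sgVec+IR replicate 3 carries the strongest colours, in 36 of the 47 rows as the lowest or the highest of the 6, and the replicates within a group do not share one colour along the list.

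Members with and without an ISRE core, as searched here, in their promoter had medians close to that of all genes. Of the 32 members with a core, 27 were tested, of which 13 were higher in CAD-KO+IR. Their median was -0.0074 on the log2 scale, with ISG20 lowest at -0.69 and IFIT1 highest at 0.83. Of the 16 members whose windows held none, 13 were tested, of which 4 were higher, with a median of -0.056. These 16 are not free of similar elements, because the search fixed the spacing between the GAAA units. Windows of OAS1, XAF1, IFI35 and CMPK2, for example, hold such units at a closer spacing, on either strand. The classes therefore separate members by this spacing only, and other forms of the element were not tested. Without sgVec+IR replicate 3 the medians were -0.018 and -0.042. The median over all genes was -0.011 in both fits. ISG15 and IFI6, with 2 and 3 cores, had estimates below 0, and IFIT1, with 2, above 0, as in the sequences printed above.

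The other genes of the interferon pathway were followed in 3 lists. Of 26 genes for interferons, further receptors and JAK2, 14 had no count in any library, among them 12 interferon alpha genes and the genes for interferon gamma (IFNG) and kappa (IFNK). IFNB1, which encodes interferon beta, had 1, 0 and 0 counts in CAD-KO+IR and 0, 1 and 0 in sgVec+IR. Its level was therefore at the limit of detection in both groups, and no fold change can be given. The interferon lambda genes IFNL1, IFNL2 and IFNL3 had at most 7 counts in any library. IFNE, the gene for interferon epsilon and the interferon with the most counts, had 16, 6 and 15 in CAD-KO+IR and 4, 8 and 0 in sgVec+IR, so the groups overlapped, and it was too low to be tested. Of the 5 genes of this list that were tested, 2 were higher and 3 lower and none was called.

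All 10 negative regulators were tested, of which 4 were higher and 6 lower, with a median log2 fold change of -0.076. SOCS1, the feedback inhibitor of the JAK kinases, was lower in every CAD-KO+IR library, at 4.93, 3.43 and 5.35 CPM against 7.4, 6.64 and 5.64 CPM. Its log2 fold change was -0.53 (SE 0.277, adjusted p = 1), and none of the 10 was called. Over all genes tested, 5.01% were lower in every CAD-KO+IR library. Of 34 other interferon-induced genes, 25 were tested, with 11 higher, 14 lower and a median of -0.073. None was called, and 1 had an unadjusted p under 0.05. This was APOL6, an apolipoprotein L family gene, with 8, 8 and 4 counts in CAD-KO+IR and 11, 16 and 40 in sgVec+IR. The groups did not overlap and the highest value was in sgVec+IR replicate 3 (log2 fold change -2.02, SE 0.72, unadjusted p of 0.0237, adjusted p = 1 in edgeR's quasi-likelihood test). Without that library it was -1.25, with an unadjusted p of 0.0583. BATF2, of the same list, was also lower in every CAD-KO+IR library. It was at 1.95, 1.48 and 1.77 CPM against 2.87, 2.12 and 2.89 CPM (log2 fold change -0.61, SE 0.337).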

How the data were processed

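RNA was extracted with Trizol and made into libraries with an mRNA kit per the labels, which list the molecule as genomic DNA. Raw counts per gene, 1 column for each library, were deposited. The authors made them with featureCounts from reads trimmed by fastp. The labels' processing notes name the mouse build mm10, whereas the gene identifiers are human. The aligner and the strand setting are not given in the sources used here, so reads of overlapping genes cannot be told apart.

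Counts were filtered with filterByExpr (minimum count 10, minimum total 15), scaled by TMM and compared with edgeR's quasi-likelihood test (edgeR 4.0.16, R 4.3.3, legacy set to FALSE), with Benjamini-Hochberg adjustment over all 12925 genes tested. Calls needed a change of 1.5-fold or more with an adjusted p under 0.05. DESeq2 1.42.0, limma 3.58.1, other scalings and filters, a replicate block and libraries left out in turn were alternatives, and the fits without both libraries that stood apart and DESeq2 without sgVec+IR replicate 3 were added after seeing the data. Whether replicate numbers pair the libraries could not be told from the values. CPM used TMM-adjusted totals. Log2 CPM for differences between libraries used a prior count of 2. Exon length, GC content and positions came from GENCODE 29, matched by identifier. Scripts were tested on simulated data.

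Members and lists were chosen with earlier results of these data known. Values per library are given for members called, with an unadjusted p under 0.05 or with groups that did not overlap, for the 2 highest per kilobase in each role, and for IFIT1, ISG15, MX1, OAS1, IFI6, STAT2, IRF9, IFNAR1 and USP18. Values of PARP12, IFI27, IFI44, IFNAR2, RSAD2, IFIT2, IFIT3 and HELZ2, and of IFNB1, IFNE, SOCS1, BATF2, CDH1 and KRT18, were added after they were seen. For IFIT2, IFIT3 and HELZ2 these are estimates of the fits and not values per library. Of the 20020 gene identifiers, 19823 matched GENCODE.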

Additional observations from a re-analysis of the deposited data

How the results depend on the processing

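No member was called with another scaling, another filter on low counts, unweighted limma-voom, DESeq2 or any 1 library left out in edgeR. The exceptions were 1 member called lower with library weights (IFI6), 1 called lower by DESeq2 without sgVec+IR replicate 3 (LGALS3BP), and 1 that was higher at an unadjusted p under 0.05 (IFIT1). Of the other pathway genes, 1 (APOL6) was called lower with library weights and at an unadjusted p. For DFFB the log2 fold change was -1.01 with DESeq2, -0.92 with library weights, -0.996 without both libraries that stood apart and -1.03 with DESeq2 without sgVec+IR replicate 3, and it was called in these 4 fits (adjusted p = 0.00169, 0.000135, 1.64e-07 and 0.00326). The cause of these differences was not tested.

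The sign of members with small estimates depended on the fit. With library weights IFI35 was at 0.014, IFITM3 at -0.24, SP100 at 0.053 and USP18 at -0.49. With library size only IFIT5 was at -0.0052, IFITM3 at -0.022 and JAK1 at -0.014. Without both libraries IFITM3 was at -0.23, SP100 at 0.018 and USP18 at -0.36. With DESeq2 without sgVec+IR replicate 3 DTX3L was at 0.12, IFITM3 at -0.30, SP100 at 0.14 and USP18 at -0.36. IFI35 was at 0.0010 with DESeq2, MX1 at 0.94 with limma-voom, TRIM21 at 0.0035 with no filter, and IFITM3 at -0.01 with upper quartile scaling and -0.0028 with a filter of 1 CPM. With 1 library left out at a time, the log2 fold change ranged from -0.24 to 0.23 for IFI35, -0.20 to 0.40 for IFIT5, -0.35 to 0.037 for UBE2L6, -0.76 to 0.23 for MX1, -0.35 to 0.10 for DTX3L, -0.11 to 0.089 for TRIM21, -0.32 to 0.24 for IFITM3, -0.25 to 0.068 for IFITM2, -0.16 to 0.12 for SP100, -0.11 to 0.28 for JAK1, -0.30 to 0.0086 for STAT2 and -0.38 to 0.33 for USP18.

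With the replicate block 0 members and 0 genes were called, the median of the members was -0.0084 and IFIT1 was at 0.84. Libraries with the same number had correlations of deviations of 0.468, -0.545 and -0.379. CAD-KO+IR replicate 2 went with sgVec+IR replicate 3 (0.552), and these are the 2 libraries that stood apart. Their shared deviation can mask a shared day or batch, so whether the numbers pair the libraries cannot be told. Low counts limit what can be said of the 12 members that were not tested. IFI44, MX1 and IRF9 had no count in sgVec+IR replicate 3, but 17, 22 and 20 counts in sgVec+IR replicate 2, although the totals of these libraries were 14032994 and 14421581, and the cause was not tested.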
